A study of Mus musculus with 25 samples.

Results

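Grafted skin tumours labelled TbrKO were set against stem cells of Tbr skin, and their expression was described gene by gene. The comparison holds 4 of the 21 RNA libraries of the series, 2 from tumours and 2 from skin, taken by their sample titles. The tumour cells came from female B6 mice, were sorted as GFP+, and were split by surface integrin alpha 6 into a high and a low gate with 1 library each. The skin cells were also female and B6, negative for lineage markers and high for integrin alpha 6. One skin library held hair follicle stem cells (HFSC, CD34+ Sca1-) and the other epidermal stem cells (EpdSC, CD34- Sca1+). The growth protocol gives postnatal day 60 for these libraries. The labels write TbrKO and Tbr without spelling them out, so whether the skin cells carry the same deletion as the tumours is not stated. The 2 libraries of a group are different sorted populations, so their spread holds the gate or the lineage as well as the replicate error. No label says that they came from separate animals, and p-values therefore measure only the spread between these samples.

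Transforming growth factor beta (TGF-beta) signals through a pair of receptor kinases, Tgfbr2 and Tgfbr1, which pass the signal to Smad proteins in the nucleus. In skin epithelium the pathway restrains proliferation, and its loss of function is associated with squamous tumours. Integrin alpha 6 anchors basal keratinocytes to the basement membrane. Sorting on its high surface level therefore enriches basal cells, while a low gate can also hold cells that never had it. Markers of stromal cells, given below, were present in both gates.

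Expression is given as CPM, counts scaled to a fixed library size, after TMM scaling. The tumour libraries held 26427770 counts in the high gate and 28562524 in the low gate, and the skin libraries 14216472 in HFSC and 24113054 in EpdSC. Across 14501 genes tested, Pearson's r of log2 CPM was 0.967 between the 2 tumour gates and 0.930 between the 2 skin populations. Between a tumour and a skin library it lay between 0.806 and 0.831, over genes that are not independent replicates. With edgeR's quasi-likelihood test, 447 genes (3.08%) were higher and 233 genes (1.61%) lower in TbrKO tumours at an adjusted p under 0.05. The smallest adjusted p was 0.0293, and 4665 genes had an unadjusted p under 0.05. The calls depended on having both tumour gates: without the high gate 151 genes were called, and without the low gate 0 genes were called, with 2210 at an unadjusted p under 0.05. When the spread was estimated from all 8 tumour and skin libraries of the same set, 11.6% of the genes were higher and 8.31% lower, and 438 of the 447 and 227 of the 233 calls were kept. Counts of list members from this 8-library fit are given beside the main ones. List counts at an unadjusted p under 0.05 are to be read against 4665 of the 14501 genes tested. List counts called by DESeq2 are to be read against 3663 of 24061 gene symbols.

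The TGF-beta receptor genes were read first. Tgfbr2 had 475 and 197 CPM in the high and low gates of the tumours labelled TbrKO, against 62.7 CPM in HFSC and 147 CPM in EpdSC. Both tumour libraries were above both skin libraries, with a log2 fold change of 1.68 ± 0.63 (SE) and an adjusted p of 0.157. Tgfbr1 had 99.6 and 94.3 CPM in the tumours, against 73.1 and 71.5 CPM in the skin (log2 fold change 0.42 ± 0.18, adjusted p = 0.195). Whole-gene counts include reads from exons outside a deletion, so these levels do not check a floxed allele, and the level of Tgfbr2 does not tell the labelled genotypes apart. Sox9, a transcription factor of hair follicle stem cells that is also found in wound-edge and tumour cells, had 222 and 287 CPM in the tumours, against 253 CPM in HFSC and 36.6 CPM in EpdSC. Its tumour levels enclosed the HFSC level and lay above the EpdSC level. The log2 fold change of Sox9 over both skin libraries was 0.81 ± 0.91 (adjusted p = 0.571).

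Among the 12 largest increases were genes of gland secretion, of matrix and of immune cells. Bpifa2, a secreted protein of salivary glands, had 21.7 and 141 CPM in the high and low tumour gates, against 0.133 and 0.0852 CPM in HFSC and EpdSC. The skin values rest on 2 reads in each library, and the pooled ratio of counts was 809, with a 95% exact interval of 316 to 2971 for counting error only. The log2 fold change was 9.53 ± 1.41 (adjusted p = 0.0450). Pip, a secreted protein of exocrine glands, had 10.9 and 13.5 CPM in the tumours and 0 reads in both skin libraries. Set against a floor of 3 reads per library, it was at least 74.4-fold higher in the tumours (adjusted p = 0.0336). Bai3, an adhesion receptor of neurons, had 15.6 and 9.26 CPM in the tumours and 0 reads in the skin, at least 75.9-fold higher (adjusted p = 0.0361). S1pr1, the sphingosine-1-phosphate receptor of endothelial cells and lymphocytes, had 9.33 and 11.3 CPM in the tumours and 0 reads in the skin, at least 62.8-fold higher. Cacna2d1, a calcium channel subunit, had 21.7 and 28.0 CPM in the tumours, against 0 and 0.0426 CPM in the skin.

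The rest of the 12 largest increases were Lum and Col3a1, which encode fibroblast matrix proteins, C1qb and C4b of the complement system, the neutrophil chemokine Cxcl3, the phospholipase Pla1a and the fatty acid carrier Fabp4. Col3a1 had 611 and 1953 CPM in the high and low tumour gates, against 2.54 and 1.58 CPM in HFSC and EpdSC (log2 fold change 9.29 ± 0.92, adjusted p = 0.0323). Fabp4 had 54.9 and 132 CPM in the tumours, against 0.200 and 0.128 CPM in the skin, where it rested on 3 reads in each library. Fabp4 marks fat cells, but the other fat cell genes Adipoq, Plin1, Lep and Cidec were too low to be tested, with at most 0.154 CPM in any of the 4 libraries.

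The 12 largest decreases included genes of skin epithelium. Krt77, a keratin of suprabasal epidermis, had 9.91 and 17.1 CPM in the tumours, against 2587 CPM in HFSC and 1036 CPM in EpdSC (log2 fold change -7.07 ± 0.75, adjusted p = 0.0327). Serpinb7, a protease inhibitor of keratinocytes, had 1.27 and 2.54 CPM in the tumours, against 254 and 357 CPM in the skin (log2 fold change -7.31 ± 0.52, adjusted p = 0.0293). Skint10, of a skin and thymus immunoglobulin-like family, had 0.424 and 0.919 CPM in the tumours, against 268 and 87.2 CPM in the skin. Lce1m, a cornified envelope protein, had 0.771 and 1.31 CPM in the tumours, against 348 and 73.2 CPM in the skin. Il22ra2, a soluble decoy receptor for interleukin 22, had 0.501 and 0.636 CPM in the tumours, against 49.0 and 377 CPM in the skin. In each of these genes both tumour gates lay far below the nearer skin library, and the rule for choosing them required both to lie below it. Skint10 and Lce1m lost their calls when 4 further skin libraries of another set joined the skin group.

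Kcnj16, a potassium channel subunit, and Tgm7, a transglutaminase, had 1 read in each tumour library. Kcnj16 had 12.01 and 31.3 CPM in HFSC and EpdSC, and Tgm7 had 11.7 and 30.6 CPM there. The remaining decreases were the cadherin Cdh4, the reelin adaptor Dab1, the phosphatase subunit Ppp2r2c, Tnfaip8l3 and the lipid kinase Pik3c2g, with log2 fold changes from -7.84 for Cdh4 to -7.13 for Pik3c2g. The rule for the largest changes drew on 392 higher and 223 lower genes, of which 8 and 7 had only a predicted name and were passed over.

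**Figure D1:**
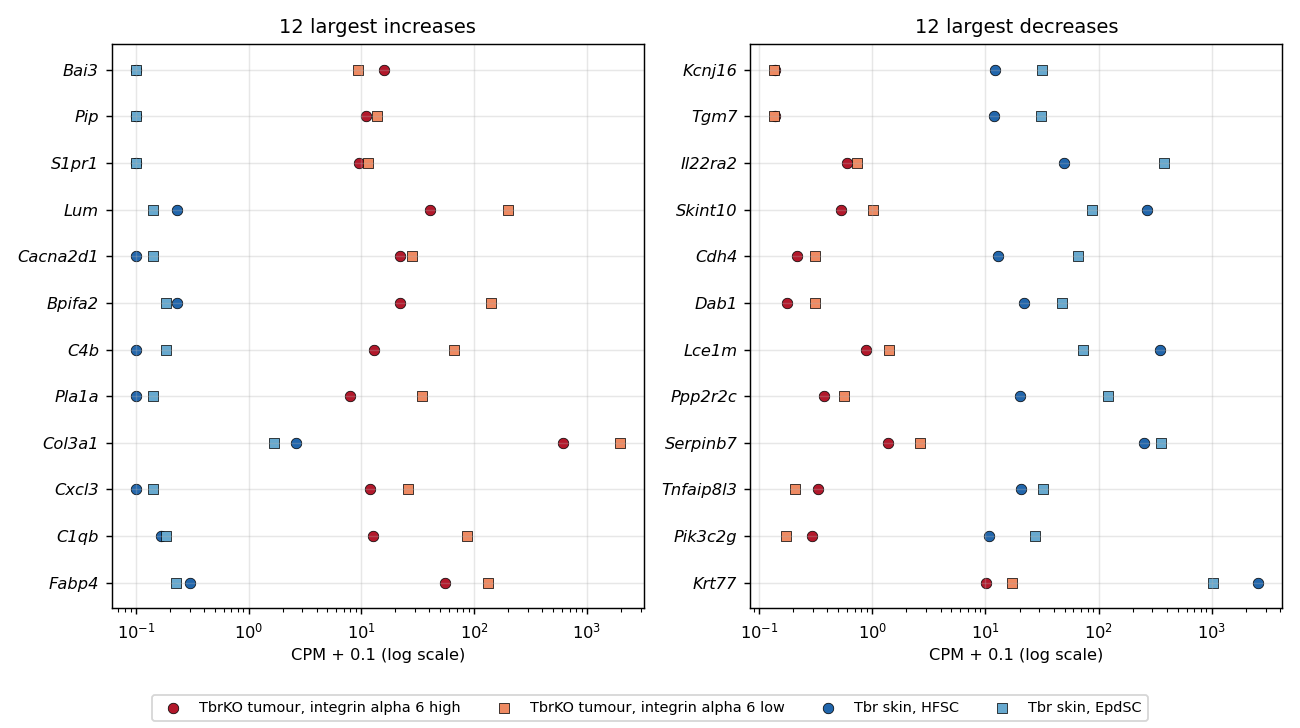
Level of the 12 genes with the largest increase and the 12 with the largest decrease, as CPM plus 0.1 on a log axis; circles and squares in red are the high and low gates of TbrKO tumours, in blue HFSC and EpdSC of Tbr skin, 1 library each. In every gene shown both tumour points lie on one side of both skin points, as the rule for choosing them required.

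The promoters of genes at both ends of this order are shown because they could be set against the open chromatin peaks of the series. For each, the 250 bases before the RefSeq start are printed (GRCm38.p6, 5′ to 3′ on the gene's strand, all on the plus strand). Capitals mark TGANTCA, the core of the AP-1 site, and TATAAA, each searched on both strands, so that TTTATA is TATAAA on the reverse strand. Bpifa2 is shown as the gland gene discussed above, and the other 4 are the called genes named by rule whose window held both motifs, chosen after the search.
Bpifa2, chr2:154008026-154008275: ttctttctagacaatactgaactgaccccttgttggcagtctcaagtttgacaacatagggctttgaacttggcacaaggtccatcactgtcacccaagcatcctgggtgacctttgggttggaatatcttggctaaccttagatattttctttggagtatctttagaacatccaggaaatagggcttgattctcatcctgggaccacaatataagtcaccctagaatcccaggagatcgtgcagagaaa
Pip, chr6:41847299-41847548: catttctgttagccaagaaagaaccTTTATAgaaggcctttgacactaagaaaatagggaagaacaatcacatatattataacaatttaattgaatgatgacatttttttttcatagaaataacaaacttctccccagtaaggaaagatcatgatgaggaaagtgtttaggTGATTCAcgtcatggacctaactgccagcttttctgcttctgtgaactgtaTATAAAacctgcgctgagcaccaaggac
Mmp13, chr9:7272264-7272513: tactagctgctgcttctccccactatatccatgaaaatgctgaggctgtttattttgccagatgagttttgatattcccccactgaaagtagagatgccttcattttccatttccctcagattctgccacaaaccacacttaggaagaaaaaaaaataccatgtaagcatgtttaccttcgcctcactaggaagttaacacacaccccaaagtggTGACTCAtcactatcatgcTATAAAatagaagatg
Sprr2d, chr3:92338890-92339139: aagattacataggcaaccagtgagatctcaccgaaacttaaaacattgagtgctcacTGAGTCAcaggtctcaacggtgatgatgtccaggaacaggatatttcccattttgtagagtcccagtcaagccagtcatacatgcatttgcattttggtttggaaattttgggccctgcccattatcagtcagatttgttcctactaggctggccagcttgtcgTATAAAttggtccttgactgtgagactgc
Serpinb7, chr1:107422439-107422688: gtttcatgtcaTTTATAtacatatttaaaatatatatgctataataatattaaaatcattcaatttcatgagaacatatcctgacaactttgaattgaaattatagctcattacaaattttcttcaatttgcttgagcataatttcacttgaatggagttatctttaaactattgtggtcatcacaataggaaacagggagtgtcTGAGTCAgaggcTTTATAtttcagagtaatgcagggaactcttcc

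Of 32851 RefSeq windows of this length, 6.75% held TGANTCA and 12.4% held TATAAA. Of the 75 called genes named by rule, 50 had a window, and 7 of these held TGANTCA, 15 TATAAA and 4 both. The shares count windows and the latter numbers count genes, some with several windows, so they are not compared. Mmp13, Sprr2d and Pip were higher in TbrKO tumours and Serpinb7 was lower, so genes of both directions carry both motifs. The peak lists of the series come from HRas tumour cells, wound cells, HFSC and EpdSC, with 1 pooled list each, and none comes from TbrKO tumours. With the 50 bases after the start included, a peak touched the window of Sprr2d only in the wound list, with a fold enrichment of 6.32 as the authors deposited it, and that of Serpinb7 only in the HRas tumour list, with 6.26. No peak of the 4 lists touched the windows of Bpifa2, Pip or Mmp13. A match of letters is not a binding site, and a window without a match says only that these letters are not in it.

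Few markers of the 2 skin stem cell populations were called in the main fit, and in both fits more were lower than higher. Of all genes, 1.61% were lower in the main fit and 8.31% in the 8-library fit. Of 21 HFSC identity genes, all tested, 0 were higher and 1 was lower, and in the 8-library fit 1 was higher and 4 were lower. Their median log2 fold change was -2.02, against -0.01 over all genes tested. Krt15, a keratin of the hair follicle bulge, had 149 and 85.1 CPM in the tumours, against 10384 CPM in HFSC and 7590 CPM in EpdSC (log2 fold change -6.26 ± 0.64, adjusted p = 0.0323). It was the 1 member called in the main fit, and its EpdSC level was near its HFSC level. Several bulge genes were near 0 in the tumours but far apart between the skin libraries, which set HFSC against EpdSC by design. Lhx2, a bulge transcription factor, had 0.694 and 0.954 CPM in the tumours, against 298 CPM in HFSC and 2.94 CPM in EpdSC (adjusted p = 0.117). Krt24 had 0.308 and 0.177 CPM in the tumours, against 556 and 26.6 CPM in the skin (adjusted p = 0.0625). Cd34, the surface protein used to sort HFSC, had 39.3 and 40.6 CPM in the tumours, between 1110 CPM in HFSC and 3.58 CPM in EpdSC. Postn, a matrix protein, was the most abundant member not called, with 3853 and 1800 CPM in the tumours, against 5695 and 526 CPM in the skin. Runx1 and Tcf7l1 were above both skin libraries in both gates without a call. Runx1, a transcription factor of follicle stem cells, had 275 and 258 CPM in the tumours, against 87.3 and 17.5 CPM in the skin (adjusted p = 0.134). Tcf7l1, a Wnt pathway repressor of the bulge, had 22.4 and 23.9 CPM in the tumours, against 10.6 and 0.724 CPM in the skin (adjusted p = 0.307).

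Genes that were at least 8-fold higher in HFSC than in EpdSC, with at least 10 CPM in HFSC, numbered 214. Both tumour libraries lay below the geometric middle of the 2 skin levels for 87 of them and above it for 105. For 52 of the 214 both tumour libraries were above the HFSC library, and for 25 both were below the EpdSC library. Of 7 genes at least 8-fold higher in EpdSC than in HFSC, both tumour libraries lay below the middle for 6 and above it for 0, and below the HFSC library for 3. Both sets were chosen on the skin values and have no test.

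Of 16 EpdSC identity genes, all tested, 3 were lower and 0 higher, and in the 8-library fit 5 were lower and 0 higher. Their median log2 fold change was -0.86. Some members were higher in HFSC than in EpdSC here. Among them were Tfap2b (379 and 119 CPM), Irx4 (28.6 and 3.66 CPM) and Sostdc1 (159 and 118 CPM). Gata3, a transcription factor of epidermis and hair matrix, had 24.9 and 38.7 CPM in the tumours, against 165 and 265 CPM in the skin (log2 fold change -2.76 ± 0.39, adjusted p = 0.0417). Il1r2, the interleukin 1 decoy receptor, had 4.78 and 5.76 CPM in the tumours, against 83.8 and 338 CPM in the skin (adjusted p = 0.0476), and lost its call in the 8-library fit. Thbs1, a matrix glycoprotein, was not called, with 1576 and 525 CPM in the tumours and 1150 and 4737 CPM in the skin. Ly6a, which encodes the Sca1 protein used to sort EpdSC, was also not called, with 903 and 548 CPM in the tumours, against 99.4 CPM in HFSC and 426 CPM in EpdSC (adjusted p = 0.263).

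Genes of basal keratinocytes were abundant in the tumours. By edgeR's test 0 of 13 basal genes were called in either direction, 3 had an unadjusted p under 0.05, DESeq2 called 2, and 2 were lower in the 8-library fit. Krt5 had 13473 and 11043 CPM in the tumours, against 13492 and 20936 CPM in the skin. Its basal partner Krt14 had 15676 and 21096 CPM in the tumours, against 5374 and 14071 CPM in the skin. Itga6, which encodes the sorted integrin, had 724 CPM in the high gate and 338 CPM in the low gate, so its RNA followed the sort. Of 13 tested genes of epidermal differentiation, edgeR called 0, with 4 at an unadjusted p under 0.05, and DESeq2 called 5. In the 8-library fit 1 was higher and 1 lower. Krt10, the first keratin of the suprabasal layers, had 752 and 1428 CPM in the tumours, against 11246 and 4744 CPM in the skin (log2 fold change -2.87 ± 0.70, adjusted p = 0.0799).

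Keratins and alarm proteins of wounded or hyperplastic epidermis were higher in the tumours. All 17 members were tested, 5 were called higher and 0 lower, and all 17 had both tumour libraries above both skin libraries, where 34.4% of the genes tested lay above and 31.4% below in that way. Their median log2 fold change was 3.73, and 14 were called higher in the 8-library fit. Krt6b, a keratin induced by wounding, had 565 and 1538 CPM in the high and low gates, against 19.6 and 17.6 CPM in the skin (log2 fold change 5.82 ± 0.66, adjusted p = 0.0336). Slpi, a secreted inhibitor of neutrophil elastase, had 284 and 243 CPM in the tumours, against 3.60 and 0.639 CPM in the skin (adjusted p = 0.0416). Sprr2d, a cornified envelope precursor, had 50.2 and 168 CPM in the tumours, against 1.07 and 0.979 CPM in the skin. Stfa3, a stefin protease inhibitor, had 435 and 504 CPM in the tumours, against 40.4 and 34.2 CPM in the skin (log2 fold change 3.65 ± 0.25). Krt17 had 6223 and 5008 CPM in the tumours, against 1374 and 439 CPM in the skin (adjusted p = 0.0890). The Krt6, Sprr2 and Stfa genes have near-identical copies, so reads can be split among them and the value of a single copy is uncertain.

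Of 8 keratins of simple and mucosal epithelium, all tested, 2 were called higher and 0 lower, and 5 were higher in the 8-library fit (median log2 fold change 3.53). Krt23 had the 1 negative value, with 7.56 and 60.3 CPM in the tumours, against 118 and 29.5 CPM in the skin (log2 fold change -1.12 ± 1.16, adjusted p = 0.543). Krt7, a keratin of ducts and glands, had 198 and 431 CPM in the tumours, against 7.67 and 11.9 CPM in the skin (adjusted p = 0.0331). Krt18, a keratin of single-layered epithelium, had 30.4 and 66.2 CPM in the tumours, against 1.13 and 0.511 CPM in the skin (log2 fold change 5.91 ± 0.68, adjusted p = 0.0347). Krt13, a mucosal keratin, had 64.5 and 185 CPM in the tumours, against 4.47 and 9.79 CPM in the skin (adjusted p = 0.0557).

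Secretory epithelium, the list that holds Bpifa2, had 4 of 16 tested members called higher and 0 lower, with 9 higher in the 8-library fit and a median log2 fold change of 4.09. Wfdc18, a small secreted protein of the whey acidic protein family, had 46.2 and 242 CPM in the tumours, against 0.801 and 0.426 CPM in the skin (log2 fold change 7.91 ± 1.15, adjusted p = 0.0445). Its relative Wfdc2 had 161 and 103 CPM in the tumours, against 2.54 and 3.54 CPM in the skin (log2 fold change 5.43 ± 0.39, adjusted p = 0.0293). Ehf, an epithelium-specific Ets transcription factor of glands and ducts, had 880 and 842 CPM in the tumours, against 24.4 and 54.6 CPM in the skin (log2 fold change 4.44 ± 0.51, adjusted p = 0.0347). Ltf, the secreted iron-binding lactoferrin, had 128 and 956 CPM in the tumours, against 3.20 and 5.03 CPM in the skin (adjusted p = 0.0554). In this list 12 of the 16 tested members were at least 2-fold and 10 at least 4-fold higher in the low gate than in the high gate (median 4.54-fold). Bpifa2, Wfdc18 and Ltf were more than 5-fold higher in the low gate, while Wfdc2 and Ehf were about level or higher in the high gate.

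**Figure D2:**
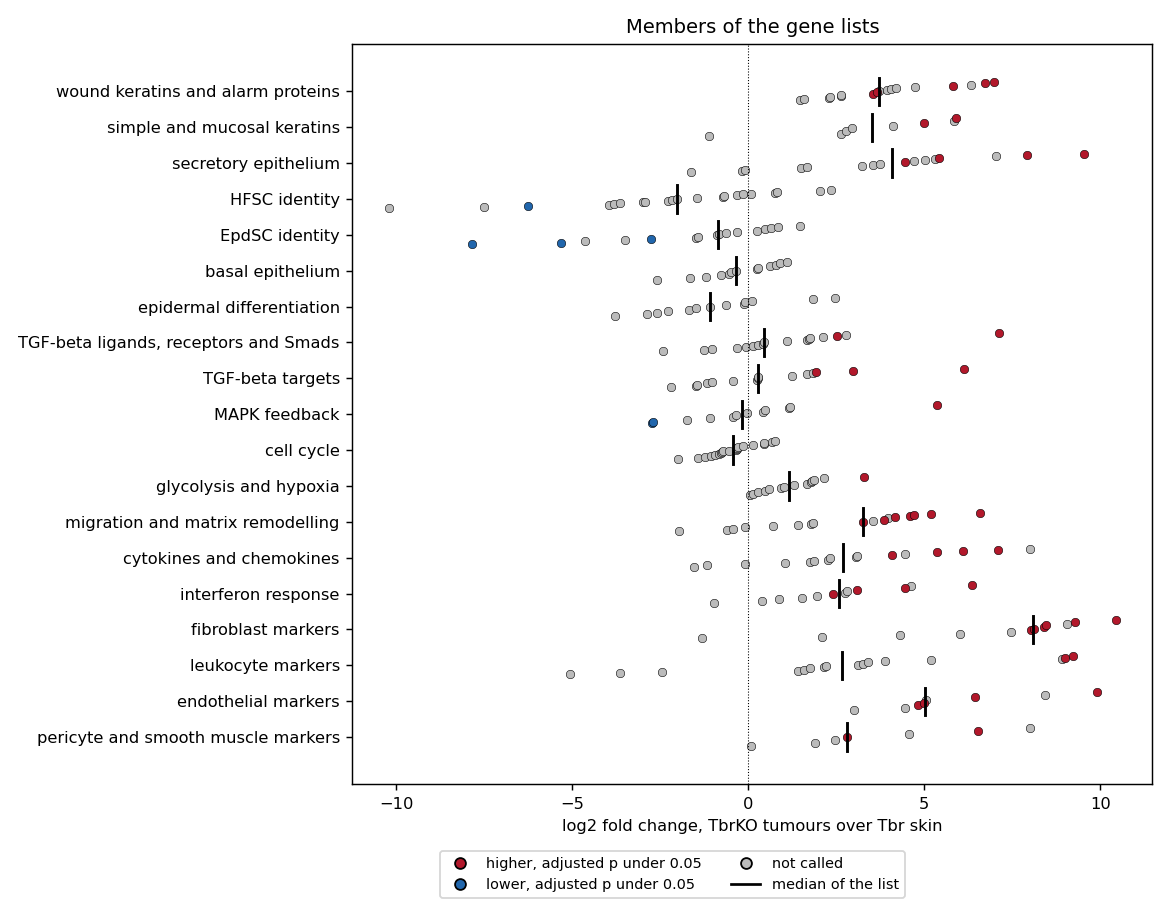
Log2 fold change of TbrKO tumours over Tbr skin for each tested member of 19 gene lists; red and blue points passed an adjusted p under 0.05, grey points did not, and the black bar is the median of the list. The bars of the wound keratins, simple keratins, secretory genes and fibroblast and endothelial markers lie right of 0, and that of HFSC identity lies left of it.

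Of the TGF-beta family, the ligand genes Inhba and Tgfb1 were called higher in the tumours. Of 17 members, all tested, these 2 were higher and 0 lower by edgeR's test, with 7 at an unadjusted p under 0.05 (median log2 fold change 0.44). In the 8-library fit 4 were higher and 1 lower, and DESeq2 called 8, among them the receptor genes Tgfbr2, Tgfbr3 and Acvr2a and the signal carrier Smad3. Inhba, the subunit of activin A, had 64.0 and 81.6 CPM in the tumours, against 0.467 and 0.554 CPM in the skin (log2 fold change 7.13 ± 0.32, adjusted p = 0.0293). Tgfb1, the main TGF-beta ligand, had 105 and 86.4 CPM in the tumours, against 12.5 and 20.4 CPM in the skin (log2 fold change 2.54 ± 0.33, adjusted p = 0.0383). Smad3 had 111 and 91.9 CPM in the tumours, against 23.9 and 36.7 CPM in the skin (adjusted p = 0.0536, and 0.0103 in the 8-library fit). Acvr2a, an activin receptor, had 51.9 and 38.1 CPM in the tumours, against 103 and 112 CPM in the skin (adjusted p = 0.0599, and 0.0130 in the 8-library fit). Tgfb1 lost its call when the 4 further skin libraries joined the skin group.

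Genes that TGF-beta signalling induces in other settings were also read. Of 15 tested, 3 were higher and 0 lower in both fits, with a median log2 fold change of 0.27. Pmepa1, an inhibitor of receptor signalling that TGF-beta induces, had 326 and 297 CPM in the tumours, against 27.6 and 51.1 CPM in the skin (log2 fold change 2.98 ± 0.38, adjusted p = 0.0378). Skil, a Smad co-repressor, had 498 and 424 CPM in the tumours, against 113 and 127 CPM in the skin (log2 fold change 1.94 ± 0.24, adjusted p = 0.0356). Tagln, an actin-binding protein of smooth muscle and myofibroblasts, had 273 and 217 CPM in the tumours, against 2.74 and 4.17 CPM in the skin (log2 fold change 6.14 ± 0.36, adjusted p = 0.0293). Fibroblast markers, given below, were also above skin in both gates, and their part in these levels was not tested. Of 17 tested BMP and Wnt genes, edgeR called 0, with 5 at an unadjusted p under 0.05, and DESeq2 called 4. In the 8-library fit 1 was higher and 3 lower.

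Feedback genes of the MAPK cascade moved apart. Of 12, all tested, 1 was higher and 2 were lower (median log2 fold change -0.18), and in the 8-library fit 2 were higher and 4 lower. Dusp4, a nuclear phosphatase of MAP kinases, had 51.6 and 51.0 CPM in the tumours, against 1.602 and 0.894 CPM in the skin (log2 fold change 5.38 ± 0.40, adjusted p = 0.0293). Spry1, an inhibitor of receptor tyrosine kinase signalling, had 7.21 and 13.6 CPM in the tumours, against 68.7 and 66.4 CPM in the skin (log2 fold change -2.70 ± 0.38, adjusted p = 0.0430). Etv5, an Ets factor induced by the cascade, had 2.12 and 2.58 CPM in the tumours, against 17.2 and 14.1 CPM in the skin (log2 fold change -2.73 ± 0.39, adjusted p = 0.0435). Hras had 144 and 162 CPM in the tumours, against 170 and 141 CPM in the skin. Of 9 EGF family genes edgeR called 0, with 1 at an unadjusted p under 0.05 and 2 called by DESeq2. Of 10 AP-1 genes it called 0, with 1 at an unadjusted p under 0.05 and 2 called by DESeq2. Of 12 genes induced by cell dissociation it called 0, with 5 at an unadjusted p under 0.05 and 4 called by DESeq2. Fos, which sample handling induces, had 3517 and 1884 CPM in the tumours, against 6048 and 6669 CPM in the skin.

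No gene of the cell cycle list was called. All 20 cell cycle genes were tested; 0 were called by edgeR in either fit, 0 had an unadjusted p under 0.05 in the main one, and DESeq2 called 0 (median log2 fold change -0.44). Summed over the list, they had 744 CPM in the high gate and 648 CPM in the low gate, between 426 CPM in HFSC and 1689 CPM in EpdSC. That gap between the skin libraries is part of the spread in the test, so 0 calls do not show equal levels. Top2a, a DNA topoisomerase of dividing cells, had 119 and 88.5 CPM in the tumours, between 58.7 CPM in HFSC and 421 CPM in EpdSC. Of 10 CDK inhibitor and p53 genes, 1 was called. That gene, Cdkn2a, which encodes the tumour suppressors p16Ink4a and p19Arf, had 18.0 and 15.4 CPM in the tumours, against 0.0667 and 0.341 CPM in the skin (log2 fold change 6.22 ± 0.79, adjusted p = 0.0365).

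Genes of migration and matrix remodelling were higher in both gates. Of 17 tested, 7 were called higher and 0 lower, and 10 were higher and 1 lower in the 8-library fit (median log2 fold change 3.27). Mmp13, a collagenase, had 131 and 195 CPM in the tumours, against 0.601 and 2.68 CPM in the skin (log2 fold change 6.58 ± 0.83, adjusted p = 0.0361). Tnc, a matrix protein of wounds and tumours, had 1941 CPM in the high gate and 682 CPM in the low gate, against 48.7 and 23.0 CPM in the skin (log2 fold change 5.20 ± 0.79, adjusted p = 0.0464). Fscn1, an actin-bundling protein of invasive protrusions, had 324 and 158 CPM in the tumours, against 8.94 and 9.37 CPM in the skin (log2 fold change 4.72 ± 0.46). Plau, the urokinase protease, had 708 and 817 CPM in the tumours, against 26.2 and 57.6 CPM in the skin, and its receptor Plaur had 57.6 and 50.6 CPM in the tumours, against 1.27 and 3.11 CPM in the skin. Tnc and Fscn1 were higher in the high gate than in the low gate of TbrKO tumours, unlike the fibroblast collagens. In the other tumours Tnc was 2.48-fold (HRas) and 2.38-fold (HRas TbrKO) higher in the low gate. There Fscn1 stayed higher in the high gate, with low over high ratios of 0.66 and 0.71.

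Of 9 tested genes of epithelial to mesenchymal transition, 1 was called higher and 5 in the 8-library fit (median log2 fold change 4.24). In this list 6 were at least 2-fold higher in the low gate than in the high gate (median 2.38-fold). Zeb2, a repressor of epithelial genes, had 77.7 and 45.6 CPM in the tumours, against 0.667 and 0.256 CPM in the skin (log2 fold change 7.12 ± 0.63, adjusted p = 0.0323). Cdh1, the epithelial E-cadherin, had 804 and 992 CPM in the tumours, against 615 and 949 CPM in the skin (adjusted p = 0.719). Fn1, a matrix protein, had 171 and 855 CPM in the tumours, against 5.21 and 15.4 CPM in the skin, and was not called (adjusted p = 0.0639). Its low gate was also 4.69-fold above the high gate in HRas and 6.68-fold in HRas TbrKO tumours. Zeb2, higher in the high gate of TbrKO tumours, was 2.42-fold and 5.90-fold higher in the low gate of those tumours. The part of stromal cells in the levels of this list was not tested.

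Among 11 tested factors that mark tumour-initiating cells of squamous carcinoma, 1 was called, and 6 were higher and 2 lower in the 8-library fit. Pitx1, a homeobox factor, had 142 and 90.0 CPM in the tumours, against 0.334 and 0.170 CPM in the skin (log2 fold change 8.89 ± 0.52, adjusted p = 0.0293). Trp63, the master factor of stratified epithelium, had 562 and 372 CPM in the tumours, against 1251 and 1697 CPM in the skin (log2 fold change -1.66 ± 0.38, adjusted p = 0.0727).

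Cytokines and interferon-induced genes were higher in part. Of 16 cytokine genes, all tested, 4 were called higher and 9 in the 8-library fit (median log2 fold change 2.70). Csf3, the granulocyte growth factor, had 24.6 and 14.1 CPM in the tumours, against 0.200 and 0.0852 CPM in the skin, where it rested on 3 and 2 reads (adjusted p = 0.0323). Cxcl1, a neutrophil chemokine, had 263 and 459 CPM in the tumours, against 18.8 and 23.6 CPM in the skin (log2 fold change 4.09 ± 0.40). Il1b, which leukocytes as well as keratinocytes make, had 44.2 and 141 CPM in the tumours, against 3.07 and 1.45 CPM in the skin. Of 12 interferon response genes, all tested, 4 were called higher, and likewise 4 in the 8-library fit, where Irf7 was called and Isg15 was not (median log2 fold change 2.59). Ifi44 had 22.8 and 13.0 CPM in the tumours, against 0.801 and 0.809 CPM in the skin, and Isg15 18.9 and 18.8 CPM in the tumours, against 3.87 and 3.19 CPM in the skin. Ifit1 lost its call under scaling by library totals.

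Metabolic lists held few calls in the main fit and more in the other fits. Of 14 glycolysis and hypoxia genes, 1 was called higher, and 7 in the 8-library fit (median log2 fold change 1.17). In this list 7 had an unadjusted p under 0.05, DESeq2 called 7, and the smallest log2 fold change was 0.06. Hk2, a hexokinase, had 482 and 375 CPM in the tumours, against 41.5 and 45.3 CPM in the skin (log2 fold change 3.30 ± 0.26, adjusted p = 0.0305). Gapdh and Eno1 were listed at 1.23 to 3.50 CPM in all 4 libraries; both have many near-identical pseudogenes, so their counts are uncertain. Of 12 Nrf2 targets, 2 were higher and 1 lower (median log2 fold change 0.96), and in the 8-library fit 6 were higher and 1 lower. Gsta4, a glutathione transferase, had 231 and 556 CPM in the tumours, against 4.94 and 11.1 CPM in the skin (log2 fold change 5.61 ± 0.73, adjusted p = 0.0381), and lost its call with the 4 further skin libraries. Aldh3a1, an aldehyde dehydrogenase, had 32.0 and 38.8 CPM in the tumours, against 131 and 135 CPM in the skin (log2 fold change -1.91 ± 0.21, adjusted p = 0.0331). Of 12 cholesterol and fatty acid genes, the desaturase Scd2 was the 1 called, with 332 and 467 CPM in the tumours, against 61.9 and 46.6 CPM in the skin (adjusted p = 0.0329). In the 8-library fit 2 of them were higher and 1 lower, 4 had an unadjusted p under 0.05 in the main fit, and DESeq2 called 3.

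Markers of stromal cells were present in both tumour gates, although the cells were sorted as GFP+. In bulk libraries, fewer cells of a type and less RNA per cell cannot be told apart. Of 12 fibroblast markers, all tested, 6 were called higher and 0 lower (8 and 0 in the 8-library fit), and their median log2 fold change was 8.08. Summed over the list, they had 3176 CPM in the high gate and 7598 CPM in the low gate, against 474 CPM in HFSC and 323 CPM in EpdSC. Sparc, which was not called, supplied 1184 and 1219 CPM of the tumour sums and 394 and 165 CPM of the skin sums. Col1a1, the main collagen of fibroblasts, had 491 CPM in the high gate and 1545 CPM in the low gate, against 5.01 and 1.11 CPM in the skin (log2 fold change 8.40 ± 1.22, adjusted p = 0.0445). Lum had 40.2 and 197 CPM in the tumours, against 0.133 and 0.0426 CPM in the skin. With the low gate left out and the spread taken from the 7 other libraries of the set, 0 of the 12 fibroblast markers were called by edgeR in either direction, with 9 at an unadjusted p under 0.05, where 3.46% of the genes were higher and 0.994% lower.

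Leukocyte markers were also higher in the low gate as a sum. Of 16, all tested, 2 were called higher and 0 lower (median log2 fold change 2.66), 5 were higher in the 8-library fit, and 3 without the low gate. Their sum was 355 CPM in the high gate and 1195 CPM in the low gate, against 208 CPM in HFSC and 65.3 CPM in EpdSC. Lyz2, a lysozyme of macrophages and neutrophils, had 49.5 and 299 CPM in the tumours, against 0.334 and 0.341 CPM in the skin (log2 fold change 8.99 ± 1.26, adjusted p = 0.0417). Cd207, of Langerhans cells, ran the other way, with 0.154 and 0.530 CPM in the tumours and 19.0 and 4.26 CPM in the skin (adjusted p = 0.0723).

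Endothelial markers were level between the gates. Of 8, all tested, 4 were called higher and 0 lower, all 8 were higher in the 8-library fit, and 4 without the low gate. Their sum was 83.4 CPM in the high gate and 91.7 CPM in the low gate, against 3.34 CPM in HFSC and 2.00 CPM in EpdSC. Pecam1, an adhesion protein of vessels, had 29.1 and 28.2 CPM in the tumours, against 0.801 and 1.19 CPM in the skin (log2 fold change 4.83 ± 0.39, adjusted p = 0.0305). Emcn had 4.59 and 5.69 CPM in the tumours and 0 reads in both skin libraries, at least 31.3-fold higher.

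Of 7 pericyte and smooth muscle markers, all tested, 2 were called higher and 0 lower. Their sum was 1850 CPM in the high gate and 1197 CPM in the low gate, against 298 and 158 CPM in the skin. Tpm2, which was called, supplied 743 and 508 CPM of the tumour sums and 113 and 66.99 CPM of the skin sums. Cspg4, which was not called, supplied 158 and 54.6 CPM of the tumour sums and 153 and 47.7 CPM of the skin sums. Both genes were thus also present in the sorted skin cells, and the part of pericytes in these sums was not tested. Acta2, smooth muscle actin, had 885 CPM in the high gate and 437 CPM in the low gate, against 4.94 and 9.28 CPM in the skin (log2 fold change 6.53 ± 0.63, adjusted p = 0.0323). The 2 tested markers of skeletal muscle and 7 of sebaceous gland held 0 calls by edgeR, with 1 and 2 at an unadjusted p under 0.05 and as many called by DESeq2. The 4 tested markers of melanocytes, 4 of Schwann cells and 1 of red cells held 0 calls by edgeR and 0 by DESeq2, with 1, 1 and 0 at an unadjusted p under 0.05. The 6 globin genes of the red cell list were at 0 in all 4 libraries. Of 9 hair matrix and shaft genes, Gata3 was the 1 called.

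By a fixed ratio, 10 of the 447 higher genes (2.24%) had at least 4-fold more CPM in the low gate than in the high gate, after 0.5 was added to each; of all genes tested, 1.93% did. The 10 were C1qb, Bpifa2, Lyz2, Wfdc18, C4b, Lum, Col6a3, Spp1, Pla1a and Cd69. The ratio sets 1 library against 1 library and has no test. On the stromal lists stood 4 of them, C1qb and Lyz2 as leukocyte and Lum and Col6a3 as fibroblast markers. At 2-fold, 57 of the 447 genes (12.8%) passed, against 7.56% of all genes tested. The ratio left out fibroblast genes that missed a call: Dcn had 82.4 and 566 CPM in the high and low gates, against 1.07 and 2.51 CPM in the skin (adjusted p = 0.0544), and Pdgfrb 7.21 and 56.3 CPM, against 0.133 and 0 CPM in the skin (adjusted p = 0.0614).

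The same ratio was read in the other tumours of the set, where it did not set Wfdc18 apart from the leukocyte markers. Lum was 4.87-fold higher in the low gate of TbrKO tumours, against 5.30-fold in HRas and 6.52-fold in HRas TbrKO tumours. Col6a3 was 4.83-fold higher in the low gate of TbrKO tumours, against 5.20-fold in HRas and 9.65-fold in HRas TbrKO tumours. C4b was 4.94-fold higher there in TbrKO tumours, against 4.08-fold in HRas and 9.63-fold in HRas TbrKO tumours. Bpifa2 had 0 reads in all 4 HRas-bearing libraries, and Wfdc18 was 5.20-fold higher in the low gate of TbrKO tumours, against 1.84-fold in HRas and 1.88-fold in HRas TbrKO tumours. The leukocyte marker C1qb was 6.64-fold higher in the low gate of TbrKO tumours, against 1.55-fold in HRas and 2.58-fold in HRas TbrKO tumours. Lyz2 was 5.99-fold higher there in TbrKO tumours, against 1.93-fold in HRas and 2.75-fold in HRas TbrKO tumours. Ltf of the secretory list, not called, was 7.43-fold higher there in TbrKO tumours, against 1.33-fold in HRas and 2.43-fold in HRas TbrKO tumours. Fbn1, a microfibril protein of fibroblasts, differed in this: its low gate was 1.31-fold above the high gate in TbrKO tumours, against 4.90-fold in HRas and 9.98-fold in HRas TbrKO tumours. Cd69 was 4.01-fold higher in the low gate of TbrKO tumours, against 3.95-fold in HRas and 5.46-fold in HRas TbrKO tumours. For Spp1 the ratio was 4.39 in TbrKO tumours, against 3.17 in HRas and 2.20 in HRas TbrKO tumours. For Pla1a it was 4.16, against 2.31 and 1.87. Lum, Col6a3 and C4b were thus over 4-fold higher in the low gate of each kind of tumour. The part of stromal cells in the levels of these genes, and in those of C1qb, Lyz2, Cd69, Spp1, Pla1a, Ltf, Dcn, Pdgfrb and Fn1, was not tested. Bpifa2 and Wfdc18 shared the gate but are on no stromal list, and neither are C4b, Spp1, Pla1a and Cd69. The lists are short, so absence from them does not tell the cell of origin.

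**Figure D3:**
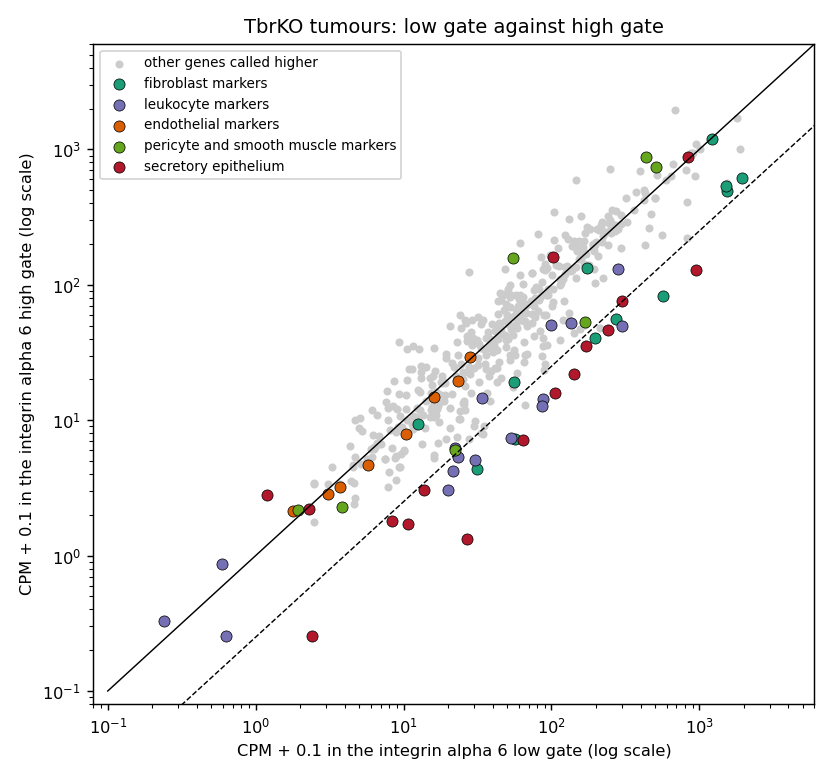
Level in the integrin alpha 6 high gate against that in the low gate of TbrKO tumours, 1 library each, as CPM plus 0.1 on log axes; grey points are other genes called higher than skin, coloured points the tested members of 5 lists. The solid line marks equal levels and the dashed line a 4-fold higher low gate. Endothelial markers lie on the solid line, with 83.4 CPM summed in the high and 91.7 CPM in the low gate, and most fibroblast and leukocyte markers lie below it.

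To show which of these levels were shared with other tumours, TbrKO tumours were set against the 4 HRas-bearing libraries, HRas and HRas TbrKO with a high and a low gate each. The fit held the gate as a covariate and was scaled on the 6 tumour libraries. In it, 18.9% of 15113 genes were higher and 18.7% lower in TbrKO tumours (2862 and 2823 genes). Without the gate covariate 2258 genes were higher and 1792 lower. Of the 447 genes higher than in skin, 154 were also higher and 76 lower than in the HRas-bearing tumours. Of the 233 genes lower than in skin, 223 were tested, 44 of which were also lower and 54 higher than in the HRas-bearing tumours. The tumour comparison and the skin comparison share the 2 TbrKO libraries.

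Of the 16 tested genes of secretory epithelium, 6 were higher and 1, Spink5, was lower in TbrKO tumours than in the HRas-bearing ones. Wfdc2 (log2 fold change -0.46, adjusted p = 0.124) and Ltf (-0.25, adjusted p = 0.734) were not called between the tumours. Bpifa2 had 21.4 and 140 CPM in TbrKO tumours and 0 reads in the other 4 libraries (adjusted p = 0.00153). Wfdc18 had 45.5 and 240 CPM in TbrKO tumours, against 1.22 and 2.65 CPM in HRas and 1.65 and 3.54 CPM in HRas TbrKO tumours (log2 fold change 5.70 ± 0.32, adjusted p = 0.000555). Krt7 had 195 and 427 CPM in TbrKO tumours, against 29.7 and 29.4 CPM in HRas and 14.2 and 38.3 CPM in HRas TbrKO tumours (log2 fold change 3.41 ± 0.30, adjusted p = 0.00154). Ehf had 867 and 833 CPM in TbrKO tumours, against 95.5 and 91.1 CPM in HRas and 164 and 162 CPM in HRas TbrKO tumours (log2 fold change 2.73 ± 0.30). Sox9 had 218 and 284 CPM in TbrKO tumours, against 94.1 and 88.9 CPM in HRas and 58.1 and 72.2 CPM in HRas TbrKO tumours (log2 fold change 1.67 ± 0.22, adjusted p = 0.00369). In Bpifa2, Wfdc18, Krt7, Ehf and Sox9 both TbrKO libraries were above all 4 others.

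Of the 8 simple and mucosal keratins, 1, Krt7, was called higher and 4 lower in TbrKO tumours, the 4 being Krt13, Krt18, Krt19 and Krt20. Krt4 (log2 fold change 1.74, adjusted p = 0.0505), Krt23 (1.45, adjusted p = 0.120) and Krt8 (-1.71, adjusted p = 0.0747) were not called. Krt13 had 63.5 and 183 CPM in TbrKO tumours, against 978 and 833 CPM in HRas and 1705 and 1512 CPM in HRas TbrKO tumours (log2 fold change -3.45 ± 0.58, adjusted p = 0.00752). Krt18 had 29.9 and 65.6 CPM in TbrKO tumours, against 382 and 435 CPM in HRas and 203 and 184 CPM in HRas TbrKO tumours (log2 fold change -2.73 ± 0.52). Cdkn2a had 17.7 and 15.2 CPM in TbrKO tumours, against 88.3 and 94.1 CPM in HRas and 126 and 112 CPM in HRas TbrKO tumours (log2 fold change -2.68 ± 0.21, adjusted p = 0.00110). All 20 cell cycle genes were lower in TbrKO tumours than in the HRas-bearing ones. Etv5 had 2.09 and 2.55 CPM in TbrKO tumours, against 20.0 and 15.1 CPM in HRas and 11.99 and 13.2 CPM in HRas TbrKO tumours (adjusted p = 0.00291), and 7 of the 12 MAPK feedback genes were lower and 1 was higher.

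Pitx1 and Inhba, both far above skin, differed less between tumours. Pitx1 had 140 and 89.1 CPM in TbrKO tumours, against 88.5 and 43.6 CPM in HRas and 103 and 70.8 CPM in HRas TbrKO tumours (log2 fold change 0.59 ± 0.21, adjusted p = 0.0668). Inhba had 63.1 and 80.8 CPM in TbrKO tumours, against 29.1 and 32.5 CPM in HRas and 22.9 and 34.1 CPM in HRas TbrKO tumours (log2 fold change 1.28 ± 0.14, adjusted p = 0.00237). Of the 12 fibroblast markers, 0 were higher and 2 lower in TbrKO tumours, and of the 8 endothelial markers 7 were lower. Of the 7 pericyte and smooth muscle markers, 3 were higher in TbrKO tumours, namely Acta2, Cspg4 and Tpm2, and 2 were lower, Myh11 and Rgs5. Acta2 had 872 and 433 CPM in TbrKO tumours, against 50.5 and 146 CPM in HRas and 29.5 and 165 CPM in HRas TbrKO tumours (log2 fold change 3.22 ± 0.68, adjusted p = 0.0146). Its level was higher in the high gate of TbrKO tumours and in the low gate of both other kinds. TbrKO tumours exceeded the HRas-bearing ones in 12 of the 21 follicle identity genes and fell below them in 1, and Postn among the 12 had a log2 fold change of 3.01 (adjusted p = 0.0294).

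**Figure D4:**
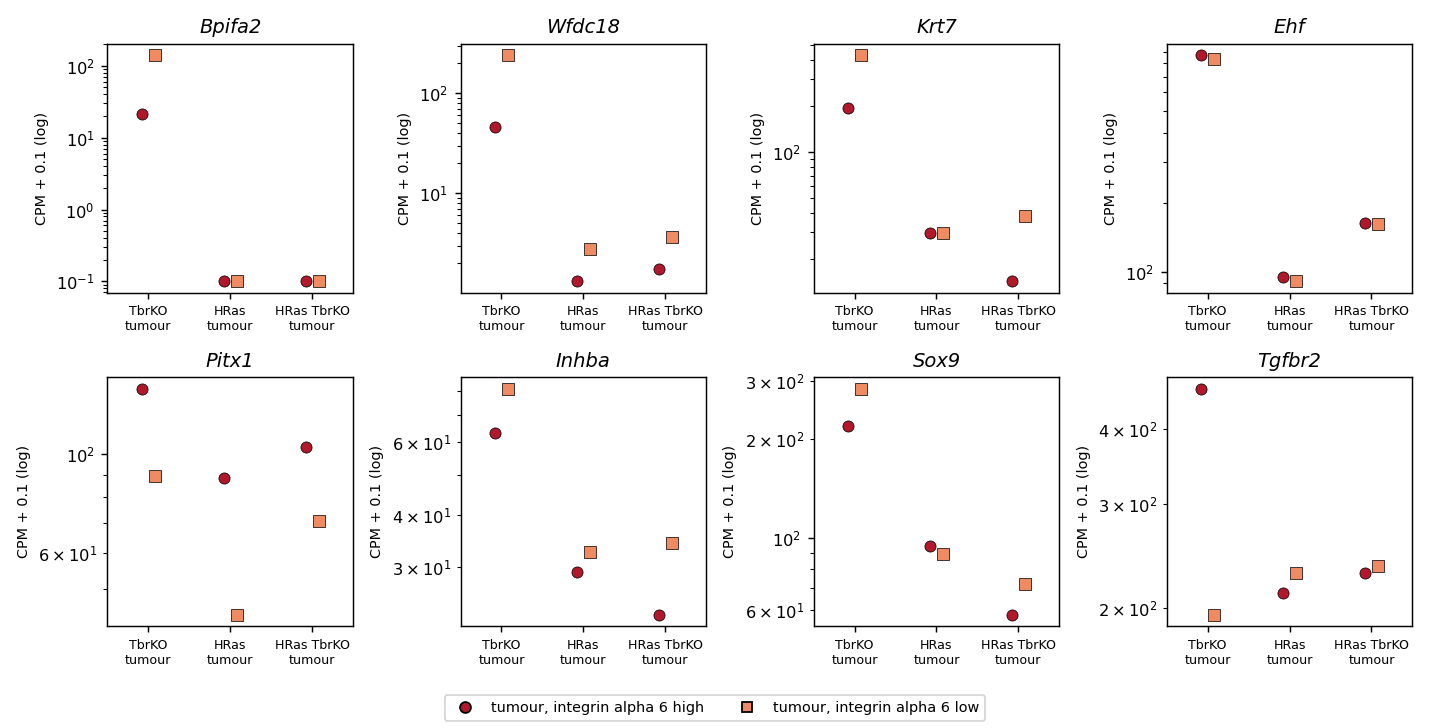
Level of 8 genes in TbrKO, HRas and HRas TbrKO tumours, as CPM plus 0.1 on log axes; circles are the high and squares the low gate, 1 library each. Bpifa2 has 0 reads in the 4 HRas-bearing libraries, the TbrKO libraries of Wfdc18, Krt7, Ehf, Inhba and Sox9 lie above the others, and those of Pitx1 and Tgfbr2 overlap them.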

How the data were processed

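For RNA, the authors deposited unnormalised whole-number read counts for each gene symbol, and the line of totals was left out. Per the labels' protocols, TruSeq libraries of total RNA were read for 51 cycles, and per the submitters' processing notes STAR and mm10 were used. How reads were assigned to genes, and whether by strand, is not given in the sources used here. Without strand, overlapping genes cannot be told apart. For the open chromatin peaks, the pileup signal and the fold enrichment over local background were deposited as MACS2 2.1.1.20160309 wrote them, per the file headers; only position and fold were used.

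The tests were run in R 4.3.3 with edgeR 4.0.16 (quasi-likelihood F test, TMM scaling, filterByExpr, Benjamini-Hochberg over all genes tested, threshold 0.05), after a check on simulated data. Each adjusted p in the text comes from it. The common biological coefficient of variation was 0.428 with 2 residual degrees of freedom. Alternatives were DESeq2 1.42.0, other scalings and filters, each library left out, and fits with more libraries. The 2 libraries of a group differed by more than sampling noise.

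The members, gene lists and tests were chosen with earlier results of these data known. Named by rule were Sox9, Bpifa2, Tgfbr2 and Tgfbr1; the 12 largest called changes in each direction with at least 10 CPM in the higher group; up to 4 called members and the most abundant uncalled member of each list; and the 8 largest low over high gate ratios. Cd34, Lhx2, Krt24, Krt6a, Krt14, Itga6, Dcn, Pdgfrb, Fbn1, Plau, Cd207, Gapdh, Eno1, Hras, Fn1, C1qa, Cd69, Ly6a, Runx1, Tcf7l1, Krt4, Krt8, Krt19, Krt20, Krt23, Smad3, Acvr2a, Tgfbr3, Irf7, Spink5, Myh11, Rgs5, Tfap2b, Irx4, Sostdc1 and the fat cell genes were added after their values were seen. Of the 447 higher and 233 lower genes 67.6% and 72.1% had a promoter window, so a comparison of motifs or peaks between these sets was void and is not given.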

Additional observations from a re-analysis of the deposited data

How the results depend on the processing

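Against 680 genes called (447 higher, 233 lower), DESeq2 called 3663 (2130 and 1533), no filter on low counts 1292 (860 and 432), the spread of all 8 libraries of the set 3074 (1789 and 1285), and a skin group with 4 more libraries 2004 (1474 and 530). The 680 genes were all among the calls of DESeq2. Leaving out 1 library gave 0 to 1206 calls, 0 to 704 higher and 0 to 502 lower; 0 came without the low tumour gate and 1206 without HFSC. With all other libraries of the set in the fit, an alternative chosen after seeing the data, 717 genes were called without the low gate (557 higher, 160 lower) and 921 without the high gate (744 and 177). Scaling by RLE or library totals and a CPM filter moved the counts by less than 1.5 times. Genes at least 4-fold higher in the low gate numbered 10, against 57 at 2-fold and 0 at 8-fold. The cause of these differences was not tested. No named call changed its sign under any alternative. Cd34, not called, had a log2 fold change of 3.47 without HFSC, past the threshold, and -4.78 without EpdSC, since the tumours lie between the 2 skin levels. No paired analysis was possible because the tumour and skin libraries share no replicate number in the labels. In the comparison of tumours, 2823 genes were lower with the gate as a covariate and 1792 without it. Depth limits genes with few reads in skin, whose folds rest on single counts.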
